A study of Homo sapiens with 6 samples.

Results

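The BCL2 family genes decide at the mitochondrion whether a cell starts apoptosis, and 10 of them were followed here in colorectal cancer stem cells with and without siRNA against PSCA. The members were BCL2, BCL2L1, MCL1, BAX, BAK1, BID, BAD, BBC3, PMAIP1 and BCL2L11, taken by gene name from a table of 58735 genes. The cells, called HCT116SCs, were CD44+CD326+ cells sorted from HCT116, an established human colorectal cancer line, and grown as spheres with 20 ng/mL EGF, 20 ng/mL bFGF and B27. In the NC group, labelled WT, 3 libraries came from cells transfected with a negative control siRNA, and in the siPSCA group, labelled PSCA knockdown, 3 libraries came from cells transfected with PSCA siRNA. All 6 were harvested 48 h after transfection and their RNA was sequenced. The sources do not say whether replicates were separate cultures, so p-values measure the spread between these libraries. Both groups are transient transfections of 1 sorted line. The titles of siPSCA 2 and siPSCA 3 carry other numbers after HCT, whereas their cell line label is HCT116, and they were kept.

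BCL2 family proteins share short BCL2 homology (BH) domains. BCL2, BCL-XL (from BCL2L1) and MCL1 hold cells alive by binding their relatives in a groove, BAX and BAK1 open pores in the outer mitochondrial membrane that release cytochrome c, and the BH3-only proteins sense stress and either fill the groove of the anti-apoptotic proteins or activate BAX and BAK1 directly. The BH3 domain is the piece that enters the groove, and colorectal cancer cells, HCT116 among them, are known for a strong dependence on BCL-XL and MCL1. RNA levels say nothing of the protein, its phosphorylation or its place in the cell, by which much of this family is controlled.

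The core of the BH3 domain is shown because it is what makes these 10 genes 1 family across their opposite roles. Each line is 24 bases of coding sequence, 5′ to 3′ on the strand of the gene, from the GENCODE release 29 transcripts on GRCh38, and capitals mark the codon of the conserved leucine and the codons of the small residue and the aspartate that follow it.
BCL2: CTCcgccaggccGGCGACgacttc
BCL2L1: CTGagggaggcaGGCGACgagttt
MCL1: TTAcgacgggttGGGGATggcgtg
BAX: CTCaagcgcatcGGGGACgaactg
BAK1: CTCgccatcatcGGGGACgacatc
BID: CTCgcccaggtcGGGGACagcatg
BAD: CTCcggaggatgAGTGACgagttt
BBC3: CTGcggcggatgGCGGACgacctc
PMAIP1: CTCaggagatttGGAGACaaactg
BCL2L11: TTGcggcgtattGGAGACgagttt

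All of these runs are exonic and coding. The 3 anti-apoptotic runs lie in exon 1, at chr18:63318355-63318378 for BCL2, chr20:31721928-31721951 for BCL2L1 and chr1:150578871-150578894 for MCL1, each on the minus strand. The effector runs lie in exon 3 of BAX at chr19:48955787-48955810 on the plus strand and in exon 4 of BAK1 at chr6:33575393-33575416 on the minus strand. Those of the BH3-only genes lie in exon 4 of BID at chr22:17739421-17739444, exon 2 of BAD at chr11:64271628-64271651 and exon 3 of BBC3 at chr19:47226585-47226608 on the minus strand, and in exon 2 of PMAIP1 at chr18:59902673-59902696 and exon 4 of BCL2L11 at chr2:111150103-111150126 on the plus strand. The small residue was glycine in 8 of the 10 members, serine in BAD and alanine in BBC3. The search asked, in the reading frame, for leucine, any 3 residues, then glycine, alanine or serine, then aspartate. BID held a further match in exon 3, which is not shown. The same letters occurred in 34.9% of 19717 protein-coding genes, so a match alone does not make a BH3 domain.

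Gene levels are given as FPKM, read fragments scaled to the length of the gene and the depth of the library. This allows a rough comparison between genes, but FPKM is not adjusted for base composition. Reads on genes ranged from 16099716 to 17302219 per library. PSCA itself was near the detection limit, with 4, 12 and 15 reads in NC and 9, 9 and 7 in siPSCA, a ratio of 0.784 (95% interval 0.444 to 1.37, exact binomial, counting error only), so these reads do not check the knockdown. Of 6 markers of the labelled cell type (EPCAM, CD44, CDH1, KRT8, KRT18 and PROM1) all were expressed, with a summed FPKM of 503 to 567 in NC and 495 to 510 in siPSCA. A limma adjusted p of 0.05 was passed by 4 of the 6 (66.7%, beside 50.7% of all genes tested), 1 higher and 3 lower. KRT8 was higher, at a log2 fold change of 0.22, and CDH1, PROM1 and CD44 were lower, at -0.60, -0.59 and -0.44. EPCAM, at -0.16, and KRT18, at -0.14, did not pass. CD44 and EPCAM (CD326) are the sort markers. Single markers were named after their values were seen. The 7 markers of immune, stromal and endothelial cells summed to 3.56 to 5.92 in NC and 6.17 to 6.74 in siPSCA, nearly all of it COL1A1, and CD3E and CD68 were at 0 in every library. NC 3 stood apart from NC 1 and NC 2 in a way that followed base composition. Across 13792 genes its difference from the mean of the others had a Spearman correlation of -0.56 with GC content. The same correlation was 0.48 for NC 1 and 0.43 for NC 2, each set against a mean that includes NC 3, so its size alone does not single out a library. Each member below is also given without NC 3.

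Between the groups 7 members changed, 6 of them upward. BBC3, BAX, BAK1 and BCL2L1 rose most, BID and BCL2L11 rose by less, and MCL1 fell slightly. BAD and PMAIP1 did not pass the test, and BCL2 was too low to be tested. By limma on log2(FPKM + 1), 7 of the 9 members tested passed an adjusted p of 0.05, beside 50.7% of all 13796 genes tested. The 6 higher members stand beside 26.6% of genes called higher, and the 1 lower member beside 24.2% called lower. All 9 tested members had groups that did not overlap, 8 higher and 1 lower, as had 64.5% of all genes tested. The median log2 fold change of the 9 members was 0.48, against 0.01 over all genes tested.

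Among the anti-apoptotic genes, the transcript for BCL-XL rose and that for MCL1 fell. BCL2L1 (ENSG00000171552) was at 22.4, 23.4 and 17.0 FPKM in NC 1 to NC 3 and at 37.3, 35.2 and 34.4 FPKM in siPSCA 1 to siPSCA 3. Every siPSCA library was above every NC library, and NC 3 was the lowest. The means were 20.9 ± 3.45 and 35.6 ± 1.5 FPKM (SD, n = 3), a log2 fold change of 0.75 ± 0.12 (SE) with a limma adjusted p of 0.00410. Without NC 3 the log2 fold change was 0.62, and the call held in all 15 alternative analyses, with adjusted p between 0.000385 and 0.0221. On the opposite strand, the antisense gene ABALON covers 43.0% of the exon bases of BCL2L1, with 88, 76 and 18 reads in NC and 98, 87 and 80 in siPSCA. Whether reads were assigned by strand is not given in the sources used here, so reads in the shared part are uncertain, and a gene total does not separate the long, anti-apoptotic BCL-XL from the short, pro-apoptotic BCL-XS that the same gene makes by splicing.

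MCL1 (ENSG00000143384), a short-lived protein that holds BAK1 and BCL2L11 in check, had the highest level of all members. Its FPKM was 62.8, 63.4 and 67.1 in NC and 59.6, 56.9 and 57.8 in siPSCA, so every siPSCA library was below every NC library by a narrow margin. The means were 64.4 ± 2.31 and 58.1 ± 1.39 FPKM (SD, n = 3), and the log2 fold change was -0.15 ± 0.05 (SE; limma adjusted p = 0.0429). The direction was the same in all 15 alternatives, but 9 of them lost the call, with adjusted p over the 15 between 0.0128 and 0.190. Leaving out any single library other than NC 3 was among those 9, and the log2 fold change without NC 3 was -0.12.

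BCL2 (ENSG00000171791), the founding member, was nearly silent in these cells. It had 21, 23 and 41 reads in NC and 38, 40 and 26 reads in siPSCA, or 0.106, 0.112 and 0.202 FPKM against 0.191, 0.191 and 0.121 FPKM. The groups overlapped. The ratio of siPSCA to NC was 1.19 (95% interval 0.885 to 1.6 by counting error), with a log2 fold change of 0.03 on the log2(FPKM + 1) scale (limma adjusted p = 0.703). Without NC 3 the log2 fold change was 0.07. At this depth neither a modest rise nor a small fall can be told from no difference. In each library BCL2L1 and MCL1 together made up nearly all of the anti-apoptotic transcript level, which summed to 85.3, 86.9 and 84.3 FPKM in NC and 97.1, 92.3 and 92.3 FPKM in siPSCA. MCL1 held 73.6%, 72.9% and 79.6% of that sum in NC and 61.4%, 61.7% and 62.6% in siPSCA, so its share was lower in every siPSCA library. Among single genes tested, 64.5% also had groups that did not overlap. The share is not adjusted for GC content, which is 45.1% for MCL1 and 56.9% for BCL2L1. With the trend of each library on GC content removed, their log2 fold changes were -0.08 and 0.41.

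Both pore-forming effectors rose. BAX (ENSG00000087088), which moves from the cytosol to the mitochondrion when activated, was at 15.1, 14.9 and 8.35 FPKM in NC and at 28.9, 28.1 and 25.2 FPKM in siPSCA. The groups were well apart, although NC 3 was at 0.556 times the mean of NC 1 and NC 2. The mean went from 12.8 ± 3.84 to 27.4 ± 1.96 FPKM (SD, n = 3), with a log2 fold change of 1.08 ± 0.22 (SE; limma adjusted p = 0.00834). Without NC 3 it was 0.83, and the call held in all 15 alternatives (adjusted p 0.000390 to 0.0365).

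BAK1 (ENSG00000030110), which resides in the outer mitochondrial membrane, followed BAX at a lower level. It was at 8.80, 10.5 and 5.96 FPKM in NC and at 17.6, 15.6 and 15.0 FPKM in siPSCA, again without overlap and with NC 3 lowest. The means of 8.41 ± 2.29 and 16.1 ± 1.37 FPKM (SD, n = 3) gave a log2 fold change of 0.89 ± 0.18 (SE; limma adjusted p = 0.00951), and 0.68 without NC 3. All 15 alternatives called it, with adjusted p between 0.00220 and 0.0409. Of its 50-base stretches 14.0% also occur in other transcripts, mainly those of the pseudogene BAK1P1, which had 2 to 6 reads in NC and 8 to 10 in siPSCA. The summed FPKM of BAX and BAK1 was 23.9, 25.4 and 14.3 in NC and 46.5, 43.7 and 40.2 in siPSCA.

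Of the 5 BH3-only genes, 3 rose and 2 did not pass the test. BBC3 (ENSG00000105327) encodes PUMA, which binds every anti-apoptotic member. It was at 5.88, 5.63 and 2.70 FPKM in NC and at 12.3, 13.1 and 10.7 FPKM in siPSCA. The lowest siPSCA library was above the highest NC library, and NC 3 was at 0.469 times the mean of NC 1 and NC 2, the lowest such ratio among the 10 members. The means were 4.74 ± 1.77 and 12.0 ± 1.25 FPKM (SD, n = 3), and the log2 fold change of 1.23 ± 0.24 (SE; limma adjusted p = 0.00821) was the largest of the members tested. It was 0.94 without NC 3 and fell to 0.31 once the trend with GC content was removed, and the call held in all 15 alternatives (adjusted p 0.000612 to 0.0349).

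BID (ENSG00000015475), which caspase-8 cleaves to carry the death receptor signal to mitochondria, rose by a small and steady amount. Its FPKM was 9.85, 9.48 and 10.001 in NC and 12.5, 12.8 and 11.5 in siPSCA. NC 3 was not set apart here. The means were 9.78 ± 0.268 and 12.3 ± 0.708 FPKM (SD, n = 3). The log2 fold change was 0.30 ± 0.06 (SE; limma adjusted p = 0.00803), 0.31 without NC 3, and all 15 alternatives called it with adjusted p between 0.00597 and 0.0489.

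BCL2L11 (ENSG00000153094) encodes BIM, a strong activator that ERK signalling marks for degradation. It was at 5.43, 5.11 and 5.35 FPKM in NC and at 6.53, 6.18 and 6.61 FPKM in siPSCA, with a narrow spread in both groups and no overlap. The means were 5.30 ± 0.171 and 6.44 ± 0.23 FPKM (SD, n = 3). The log2 fold change was 0.24 ± 0.05 (SE; limma adjusted p = 0.0129). It was 0.25 without NC 3, and of the 15 alternatives only leaving out siPSCA 1 lost the call, over an adjusted p range of 0.00336 to 0.0520. The non-coding gene MIR4435-2HG overlaps 10.9% of its exon bases on the opposite strand.

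PMAIP1 (ENSG00000141682) encodes NOXA, which binds MCL1 and promotes its degradation. It was the highest BH3-only gene, at 29.7, 30.6 and 30.7 FPKM in NC and 31.3, 32.5 and 32.2 FPKM in siPSCA. The siPSCA libraries were all above the NC libraries, but only just, and the log2 fold change of 0.07 (95% interval -0.03 to 0.18; limma adjusted p = 0.198) did not pass. This value depended on the processing. Its log2 fold change was 0.08 without NC 3, -0.014 after quantile normalization and 0.37 with the GC trend removed, where the gene was called. Adjusted p over the 15 alternatives ran from 0.000999 to 0.823.

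BAD (ENSG00000002330), whose binding to BCL-XL is switched off by AKT phosphorylation, was at 7.42, 7.03 and 3.98 FPKM in NC and at 8.31, 9.85 and 8.002 FPKM in siPSCA. The groups did not overlap, yet NC 1 and NC 2 were close to the siPSCA libraries and NC 3 was at 0.550 times their mean. The log2 fold change was 0.48 (95% interval -0.03 to 0.98; limma adjusted p = 0.1001) and 0.24 without NC 3. No alternative called it (adjusted p 0.0575 to 0.245). GPR137 covers 23.7% of its exon bases on the opposite strand and had 130, 135 and 78 reads in NC against 284, 290 and 329 in siPSCA. The summed FPKM of the 5 BH3-only genes was 58.2, 57.9 and 52.8 in NC and 70.9, 74.5 and 68.9 in siPSCA.

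**Figure D1:**
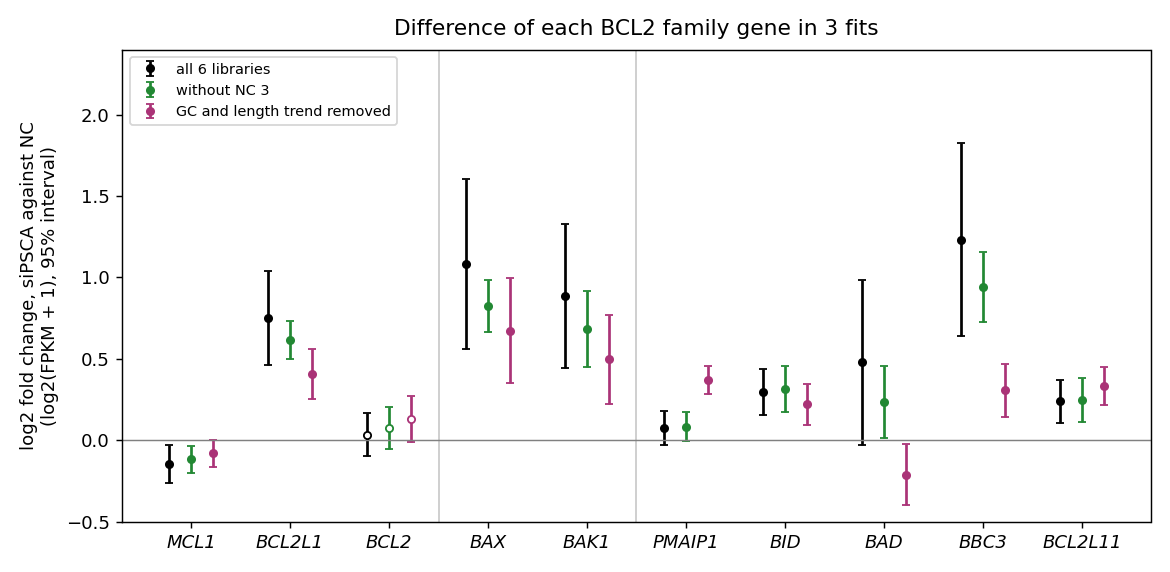
Log2 fold change of siPSCA against NC on log2(FPKM + 1), with 95% intervals, for each member over all 6 libraries (black), without NC 3 (green) and with the GC and length trend of each library removed (purple), with BCL2, under the minimum level, as open symbols. BBC3 moves from 1.23 to 0.31 when the trend is removed, BAD changes sign to -0.21 and PMAIP1 moves from 0.07 to 0.37.

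The size of the change in the members ran alongside their base composition. Across all 13792 genes with a GC value the log2 fold change had a Spearman correlation of 0.66 with GC content, a description over genes that share the same 6 libraries. The members with a transcript GC content of 56.9% or more were BCL2L1, BAK1, BAX, BAD and BBC3, and these were the same 5 in which NC 3 was at 0.469 to 0.742 times the mean of NC 1 and NC 2. In BID, MCL1, BCL2L11 and PMAIP1, at 37.2% to 49.7% GC, NC 3 was at 1.02 to 1.06 times that mean. For BCL2, at 45.6% GC, it was at 1.85 times, on 21, 23 and 41 reads in NC. With the trend of each library on GC content and length removed, 7 of the 9 members tested were called, all higher, beside 39.6% of all genes tested. Those 7 included PMAIP1 and not MCL1, whose log2 fold change was -0.08. BAX then stood at 0.67, BAK1 at 0.50, BCL2L1 at 0.41, BCL2L11 at 0.33 and BID at 0.22. Without NC 3, 7 members were called, 6 of them higher, beside 53.8% of all genes tested. The median over the 9 members was 0.33 with the trend removed, against 0.02 over all genes, and 0.31 without NC 3, against 0.02. Whether base composition has a part in the differences was not tested.

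Members could also be placed among genes of like GC content. BAX was above 98.5% of the genes in its band of 55% to 60% GC, BAK1 above 95.9% and BCL2L1 above 91.6% of the same band. PMAIP1, at 37.2% GC, was above 91.1% of its band, in which the median gene had a log2 fold change of -0.33. BBC3 was above 85.7% and BAD above 23.2% of the genes over 65% GC, where the median was 0.78. BID and BCL2L11 were above 87.9% and 83.5% of the genes between 45% and 50% GC, and MCL1 above 34.0%. BID, at 49.7% GC, lies at the upper edge of that band. In the band of 50% to 55% GC the middle quartiles ran from -0.09 to 0.33, a range that holds the 0.30 of BID.

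**Figure D2:**
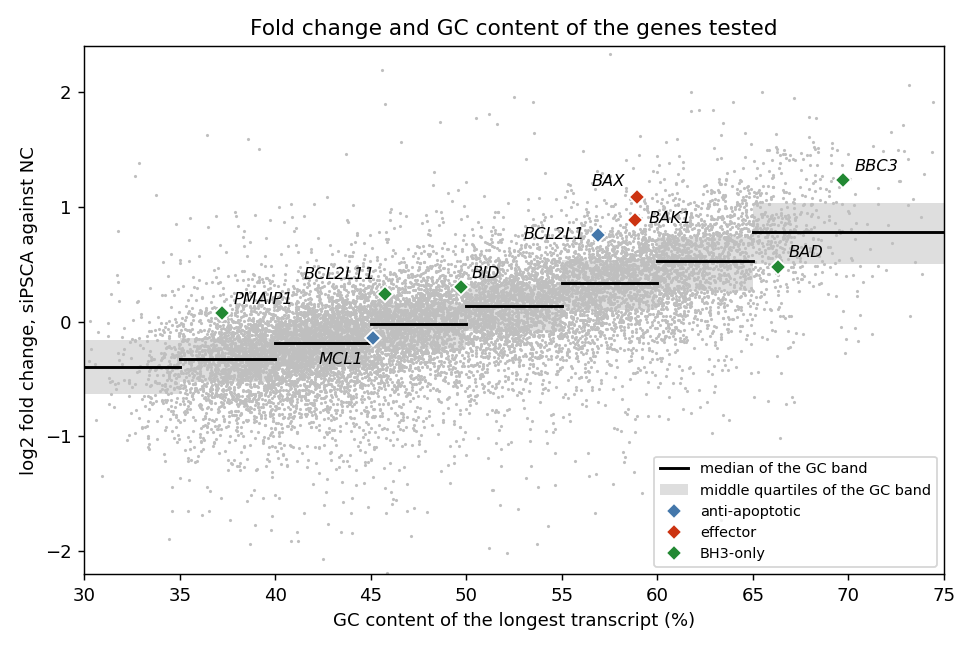
Log2 fold change of siPSCA against NC (vertical axis) and GC content of the longest transcript in percent (horizontal axis) for the genes tested (grey points), with the median (line) and the middle quartiles (shading) of each GC band and the 9 tested members as diamonds coloured by role, and 40 of 13792 genes beyond the axes. The band medians climb from -0.40 under 35% GC to 0.78 over 65% GC. BAX, BAK1, BCL2L1, BBC3, BID, BCL2L11 and PMAIP1 lie above the middle quartiles of their bands, MCL1 lies within them and BAD lies below.

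By level, MCL1 led and BCL2 came last in both groups. In NC the order ran MCL1, PMAIP1, BCL2L1, then BAX, BID, BAK1, BAD, BCL2L11 and BBC3, and last BCL2. From BAX to BBC3, the ranges of neighbours in that order overlapped between libraries and are not separated, although BAK1 was above BAD within each NC library. In siPSCA it ran MCL1, BCL2L1, PMAIP1, BAX, BAK1, BID, BBC3, BAD, BCL2L11 and BCL2, and only BID and BBC3 overlapped as neighbours. BCL2L1 passed PMAIP1, and BBC3 went from the ninth place to the seventh. This order is of FPKM not adjusted for GC content, which is 56.9% for BCL2L1, 37.2% for PMAIP1 and 69.7% for BBC3. With the GC trend removed the log2 fold changes were 0.41 for BCL2L1 and 0.37 for PMAIP1. They were 0.31 for BBC3, -0.21 for BAD and 0.33 for BCL2L11. Whether the shifts in order hold with the trend removed was not tested.

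Ratios between opposing members are given as a description, without a test. The ratio of BAX to BCL2L1 FPKM was 0.674, 0.637 and 0.491 in NC and 0.775, 0.799 and 0.732 in siPSCA, every siPSCA library above every NC library. The ratio of BBC3 to MCL1 was 0.0936, 0.0888 and 0.0403 in NC and 0.207, 0.230 and 0.185 in siPSCA. For BCL2L11 to MCL1 it was 0.0865, 0.0805 and 0.0798 in NC and 0.109, 0.109 and 0.114 in siPSCA. The groups did not overlap in any of these, nor for PMAIP1 to MCL1, at 0.458 to 0.483 in NC and 0.525 to 0.571 in siPSCA. Among single genes tested, 64.5% also had groups that did not overlap. The genes of a ratio can differ in GC content, as BBC3 at 69.7% and MCL1 at 45.1%. With the GC trend removed the log2 fold changes were 0.31 for BBC3, 0.33 for BCL2L11, 0.37 for PMAIP1 and -0.08 for MCL1. Those of BAX and BCL2L1 were then 0.67 and 0.41. The ratios themselves were not adjusted for GC content. The ratio of BAX to BCL2 was 142, 133 and 41.3 in NC and 151, 147 and 208 in siPSCA, and it rests on the 21 to 41 reads of BCL2 in each library.

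The other BCL2 family genes moved in both directions and held the largest falls. Of 14 listed, 9 were tested and 6 called (66.7%, beside 50.7% of all genes tested), 4 higher and 2 lower, and their median log2 fold change was 0.21. BNIP3L and BNIP3, BH3-containing receptors that tag mitochondria for autophagy and are induced by low oxygen, fell from 61.4 ± 4.16 to 17.3 ± 0.875 FPKM and from 26.1 ± 0.638 to 8.80 ± 0.16 FPKM (SD, n = 3). Their log2 fold changes were -1.77 ± 0.07 and -1.47 ± 0.05 (SE; limma adjusted p = 9.42e-05 and 6.24e-05), and all 15 alternatives called both. BCL2L12 rose by a log2 fold change of 1.00, the effector BOK by 0.75 and the BH3-only gene BIK by 0.66, with limma adjusted p of 0.0174, 0.0110 and 0.0464. With the GC trend removed BOK was at 0.014 and BCL2L12 at 0.60. BCL2L12 kept its call in 12 of the 15 alternatives and BIK in 6, and BIK was at 0.39 without NC 3. BCL2A1, BCL2L10, HRK, BCL2L14 and BCL2L15 lay under the minimum level in these cells.

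Downstream of BAX and BAK1, the machinery that turns the leak of mitochondrial proteins into caspase activity held genes called in both directions. Of 19 genes listed, 18 were tested and 11 called (61.1%, beside 50.7% of all genes tested), 7 higher and 4 lower, with a median log2 fold change of 0.18. The nuclease gene ENDOG rose from 2.81 ± 1.27 to 6.79 ± 1.06 FPKM and the protease gene HTRA2 from 3.29 ± 0.346 to 5.80 ± 0.620 FPKM (SD, n = 3). Their log2 fold changes were 1.09 and 0.66, with limma adjusted p of 0.0190 and 0.00279. With the GC trend removed ENDOG was called at 0.37 and HTRA2, at 0.17, was not called. Without NC 3 they were at 0.77 and 0.64. The inhibitor of apoptosis genes BIRC3, BIRC2 and XIAP fell by 0.54, 0.50 and 0.25 on the log2 scale, with limma adjusted p of 0.00253, 0.00223 and 0.0135. With the GC trend removed the first 2 were at -0.19 and -0.21, and XIAP was at 0.09, the opposite sign. BIRC5, a further gene of that family, outside the naming rule and chosen after its values were seen, rose by 0.33 (limma adjusted p = 0.0053) and was called in all 15 alternatives.

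Regulators of the family were called at a share near that of all genes. Of 33 tested 18 were called (54.5%, beside 50.7% of all genes tested), 10 higher and 8 lower. Of 12 genes for transcription factors that act on these promoters 5 were called (41.7%). E2F1 and TP73 rose by log2 fold changes of 0.81 and 0.64, and DDIT3 and FOXO3 fell by 0.80 and 0.33, with limma adjusted p between 0.00341 and 0.00563 for these 4 genes. TP73 can drive BBC3 and BAX, and FOXO3 drives BCL2L11 and BBC3. Of 21 genes whose products modify or bind family proteins 13 were called (61.9%), 7 higher and 6 lower. SFN, a 14-3-3 protein that binds phosphorylated BAD and BAX, rose from 116 ± 9.75 to 203 ± 17.5 FPKM (SD, n = 3), and the kinase genes PIM3 and AKT1, whose products phosphorylate BAD, rose by log2 fold changes of 0.79 and 0.52. MAPK8, USP9X, which removes ubiquitin from MCL1, and YWHAZ fell by 0.47, 0.42 and 0.30, and limma adjusted p of these 6 genes lay between 0.0015 and 0.0229. With the GC trend removed 11 of the 33 regulators were called, in place of 18, beside 39.6% of all genes tested. PIM3, AKT1, USP9X and YWHAZ were then between -0.05 and 0.08 and MAPK8 at -0.10, none of them called. E2F1, TP73 and SFN stayed called at the smaller values of 0.25, 0.20 and 0.31. DDIT3 and FOXO3 stayed called at -0.80 and -0.32, and all 15 alternatives called both.

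**Figure D3:**
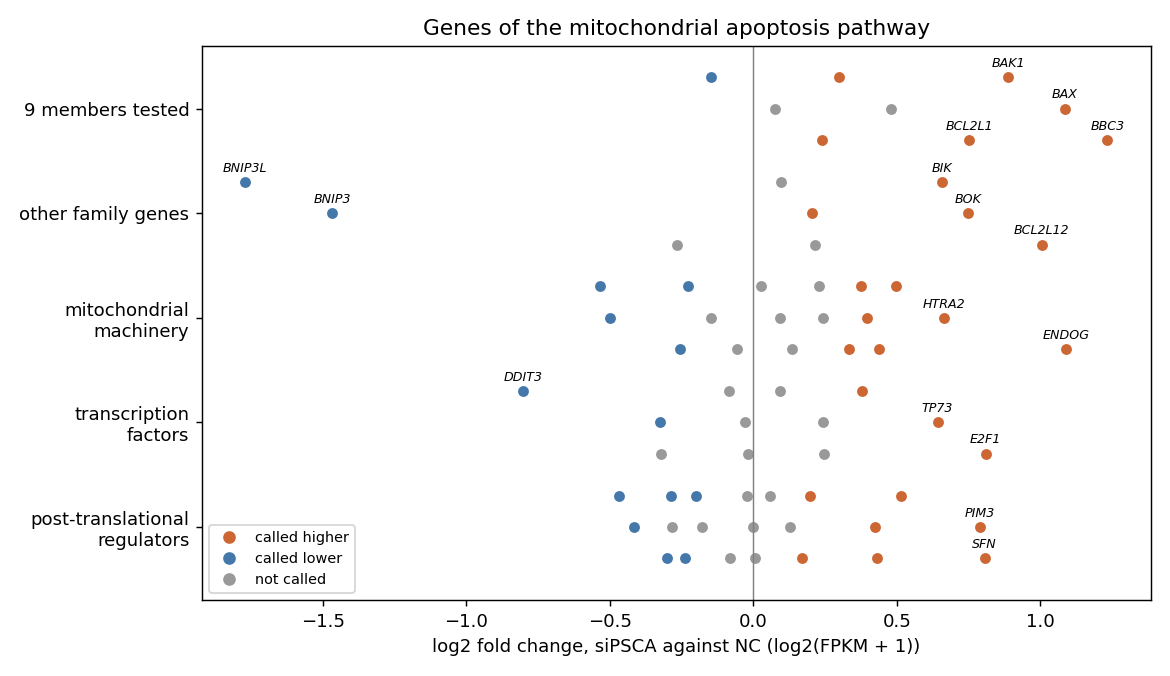
Log2 fold change of siPSCA against NC on log2(FPKM + 1) for the tested BCL2 family members and 4 lists of related genes, each point a gene, orange where called higher, blue where called lower and grey where not called. BNIP3L and BNIP3, at -1.77 and -1.47, lie furthest to the left, and BBC3, at 1.23, furthest to the right.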

How the data were processed

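RNA of 6 libraries, 3 NC and 3 siPSCA, was analysed, grouped by the sample labels. The authors deposited gene levels as FPKM for 58735 genes on GRCh38, and the gene identifiers and exon lengths were those of GENCODE release 29. The aligner, the counting program and the strand setting are not given in the sources used here. Every FPKM value (100%), once multiplied by length, was a whole multiple of 1 read within 0.1, which gave back the reads of each gene. Reads on genes ranged from 16099716 to 17302219 per library. Intervals on read ratios cover counting error only.

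Differences were tested with limma 3.58.1 in R 4.3.3 (lmFit and a trended eBayes) on log2(FPKM + 1), with group as the only term, for the 13796 genes whose FPKM averaged 1 or more. This scale understates the change of low genes. Every adjusted p is 2-sided, from limma, adjusted by Benjamini and Hochberg over all genes tested, with a threshold of 0.05. BCL2 and PSCA lay under the minimum and were read from the same model over 34391 genes with a read. The 15 alternatives were a pseudocount of 0.1, no filter, a minimum of 5, TPM, quantile normalization, limma-voom on the recovered reads, removal of each library's trend on GC content and length (a spline with 5 degrees of freedom), a replicate block, that block with the trend removed, and leaving out each library. Python 3.11.15, pandas 2.3.3, numpy 2.4.6, scipy 1.17.1 and matplotlib 3.10.9 were used for the rest.

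The members and lists were chosen with earlier results of these data known. All 10 members are named, and of each other list at most the 3 largest rises and 3 largest falls among the genes called, except for some that are not reported here. Among the names, 27 had turned into dates and were restored by identifier. DIABLO is split over overlapping gene models and is uncertain.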

Additional observations from a re-analysis of the deposited data

How the results depend on the processing

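BAX, BAK1, BCL2L1, BID and BBC3 kept their direction and their call in all 15 alternatives, and MCL1, BCL2L11, PMAIP1 and BAD did not keep both. BAD was at -0.21 (log2) with the GC trend removed, with or without the replicate block, and PMAIP1 at -0.014 after quantile normalization. The count of members called, 7, ranged from 5 to 7 when 1 library was left out, the 5 being without siPSCA 1. Over all genes tested, 7001 were called, 4643 with the replicate block and the GC trend removed, and 4610 to 7410 with 1 library left out, the lowest without siPSCA 1. The other BCL2 family genes called, 6, became 3 with no filter and ranged from 3 to 6 with 1 library left out, the 3 being without siPSCA 1 or siPSCA 2. Regulators called, 18, became 11 with the GC trend removed and 9 with the block added, and ranged from 12 to 22 with 1 library left out. Mitochondrial machinery genes called, 11, ranged from 8 to 13. The cause of these shifts was not tested.

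The deviations from the group means correlated at 0.0956, 0.0133 and 0.134 between same-numbered libraries. Between libraries of different number the correlations ran from -0.131 to 0.0417. With 3 libraries per group these values cannot decide whether the numbers pair the samples. With the replicate block 6 members and 6725 genes were called. Depth limits BCL2, with 21 to 41 reads per library, and PSCA.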
